A study of Mus musculus with 6 samples.

Results

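A set of 10 genes that control the cyclin D kinases was followed in mouse ovarian surface epithelial cells, the single cell layer that covers the ovary, labelled as Lats1/2 knockout and in control cells. They are the D cyclins Ccnd1, Ccnd2 and Ccnd3, the kinases Cdk4 and Cdk6, the CIP/KIP inhibitors Cdkn1a and Cdkn1b, and the INK4 inhibitors Cdkn2a, Cdkn2b and Cdkn2c. They were chosen by name, with earlier results of these data known. All 10 were found by gene ID among the 48440 genes of the count table and passed the filter on low counts. Control cells received an adenovirus with GFP alone (Ad-GFP, labelled WT, 3 libraries) and the others an adenovirus with Cre recombinase and GFP (Ad-Cre-GFP, labelled Lats1/2 knockout, 3 libraries), and RNA was sequenced after 7 days. Both groups thus carried virus and GFP, and only 1 carried Cre. The alleles that Cre acts on, the promoter that drives it and the number of cultures or animals behind the libraries were not stated in the labels used here. Loss of LATS1/2, exposure to Cre and any difference between the cultures cannot be told apart. Replicates are not said to be separate cultures, so p-values measure the spread between these libraries, which may be technical.

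D cyclins carry growth factor signals to the cell cycle. They bind CDK4 or CDK6, and the complex phosphorylates the retinoblastoma protein, which frees E2F factors to switch on genes of DNA replication. INK4 proteins bind CDK4 and CDK6 and keep them from their cyclins, while the CIP/KIP proteins p21 (Cdkn1a) and p27 (Cdkn1b) inhibit the later CDK2 complexes and can also help cyclin D complexes to assemble. LATS1 and LATS2 are the Hippo pathway kinases that hold back YAP and TAZ, coactivators of growth genes that bind DNA through TEAD factors.

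The libraries held between 18690235 and 30304033 counts, more in each Ad-Cre-GFP library than in any control. Every member had at least 314 counts in every library. Of the targeted genes, Lats1 was 23.2% and Lats2 76.2% of its control level in the Ad-Cre-GFP libraries. These counts cover whole genes, so a deleted part was not measured on its own. Of 11 markers of ovarian surface epithelium and mesothelium, 5 were higher and 6 lower in the Ad-Cre-GFP libraries (edgeR, adjusted p under 0.05, which 69.8% of all tested genes passed), while their sum was 2815 to 2891 CPM (counts scaled by library size) in control and 2838 to 2874 CPM in Ad-Cre-GFP libraries. Summed markers of other cell types were 109 to 117 and 24.0 to 27.97 CPM for stromal fibroblasts, 130 to 131 and 95.7 to 97.7 CPM for theca and steroidogenic cells, and 134 to 146 and 324 to 337 CPM for granulosa cells, in the control and Ad-Cre-GFP libraries respectively. Nearly all of the granulosa sum was Inhbb, with means of 135 of 139 CPM in the controls and 326 of 330 CPM in the Ad-Cre-GFP libraries. The low sums were 3.01 to 3.05 and 10.02 to 11.4 CPM for endothelial, 11.1 to 13.3 and 6.93 to 7.34 CPM for immune, 3.40 to 4.51 and 2.68 to 2.98 CPM for oviduct, and 0.318 to 0.430 and 0.292 to 0.616 CPM for oocyte markers in the same order. Of the tested markers, all 4 stromal and both theca genes fell, both endothelial genes rose, 3 granulosa genes rose and 1 fell, and 1 of 2 immune and 1 of 2 oviduct genes fell. Ptprc, Csf1r, Cdh5, Tie1, Lum, Fshr and Cyp19a1 had at most 8 counts summed over a group. The part of other cells in the results below was not tested, and fewer cells of a type and less RNA per cell cannot be told apart in bulk RNA.

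The upstream sequences of 4 genes are shown because the pair of CIP/KIP genes changed in opposite directions, Cdk6 was among the largest changes, and Cdkn2a has separate starts for 2 proteins that its gene count pools. Each is the 250 bases before a RefSeq start on GRCm38.p6, 5′ to 3′ on the gene's strand. The Cdk6 sequence is chr5:3343643-3343892 (+ strand) and the Cdkn1b sequence chr6:134920151-134920400 (+). Cdkn1a has 2 RefSeq starts, the first with chr17:29090729-29090978 and the second with chr17:29093519-29093768 before it (+). The Cdkn2a start farther upstream, which gives the transcript of p19ARF, has chr4:89294620-89294869 before it, and the start of the p16INK4a transcript chr4:89282193-89282442 (- strand). Capitals mark matches, on either strand, to a p53 site, a CCAAT box, the GC box letters GGGCGG, the letters TATAAA of a TATA box, and the motifs of TEAD (GGAATG), FOXO (TGTTTAC), AP-1 (TGANTCA) and E2F (either TTTGGCGC or TTTCCCGC or TTTCCCGG). No match overlapped another.
Cdk6: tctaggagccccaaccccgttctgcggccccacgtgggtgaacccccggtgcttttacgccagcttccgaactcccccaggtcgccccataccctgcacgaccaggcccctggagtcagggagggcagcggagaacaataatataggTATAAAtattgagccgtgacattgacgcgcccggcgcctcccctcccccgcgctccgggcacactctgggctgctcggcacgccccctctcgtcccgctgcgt
Cdkn1a, first start: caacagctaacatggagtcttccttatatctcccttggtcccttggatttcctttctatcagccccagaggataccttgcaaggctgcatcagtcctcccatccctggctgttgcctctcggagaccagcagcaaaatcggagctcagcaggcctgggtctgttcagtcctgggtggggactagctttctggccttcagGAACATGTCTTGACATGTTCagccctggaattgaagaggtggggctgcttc
Cdkn1a, second start: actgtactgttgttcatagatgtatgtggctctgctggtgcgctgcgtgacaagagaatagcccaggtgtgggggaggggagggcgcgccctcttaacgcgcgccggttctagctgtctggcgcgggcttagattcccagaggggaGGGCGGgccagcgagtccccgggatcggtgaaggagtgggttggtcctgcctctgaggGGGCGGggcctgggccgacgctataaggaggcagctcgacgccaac
Cdkn1b: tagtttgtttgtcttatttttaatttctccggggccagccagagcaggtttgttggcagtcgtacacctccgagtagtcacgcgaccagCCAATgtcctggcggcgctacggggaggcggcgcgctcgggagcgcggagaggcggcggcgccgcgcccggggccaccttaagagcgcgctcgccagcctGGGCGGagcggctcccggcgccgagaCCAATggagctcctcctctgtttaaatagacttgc
Cdkn2a, p19ARF start: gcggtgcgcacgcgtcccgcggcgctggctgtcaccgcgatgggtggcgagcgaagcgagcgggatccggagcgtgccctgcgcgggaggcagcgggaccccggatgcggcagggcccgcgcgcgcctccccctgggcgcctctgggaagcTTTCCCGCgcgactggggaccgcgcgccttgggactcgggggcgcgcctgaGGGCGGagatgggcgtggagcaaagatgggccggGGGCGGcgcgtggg
Cdkn2a, p16INK4a start: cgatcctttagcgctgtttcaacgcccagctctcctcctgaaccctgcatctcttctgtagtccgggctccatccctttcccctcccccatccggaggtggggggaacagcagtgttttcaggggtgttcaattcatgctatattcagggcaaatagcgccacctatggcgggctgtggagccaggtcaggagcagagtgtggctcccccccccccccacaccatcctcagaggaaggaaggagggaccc

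Before the first Cdkn1a start lay a p53 site, counted as 2 adjoining half-sites with at most 1 mismatch outside the C and G of each core (bases -51 to -32). This motif was added after the sequence was seen. Such a site occurred in 0.0578% of 32851 RefSeq promoter windows of the same length. The second Cdkn1a start had 2 GC boxes, the p19ARF start 2 GC boxes and the E2F match (bases -99 to -92), and the p16INK4a start none of the motifs searched. Cdkn1b had 1 GC box and 2 CCAAT boxes, and Cdk6 the TATA box letters (bases -103 to -98). Over all windows a GC box occurred in 32.7%, a CCAAT box in 33.8%, a TATA box in 12.4% and an E2F match in 2.26%. The table held 12 windows for 8 of the members, with none for Ccnd1 and Ccnd2. Of these, 1 held the TEAD letters, before the second start of Ccnd3 (bases -17 to -12), against 12.6% of all windows. The FOXO letters also stood in 1 window, before the first start of Ccnd3 (bases -243 to -237), against 3.17% of all windows. A GC box stood in 7 of the 12. All windows had a median of 52.4% G and C, and of the 12 only the second Cdkn2c window was below it, at 42.8%. The part of base composition in the GC box count was not tested. None of the 12 held AP-1, which occurred in 6.75% of all windows. These matches describe letters, and no binding was measured.

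Of the 10 members, 5 rose and 4 fell in the Ad-Cre-GFP libraries, and Cdkn2a did not pass the test (edgeR quasi-likelihood, adjusted p under 0.05). Ccnd1, Ccnd3, Cdk4, Cdk6 and Cdkn1a rose, and Ccnd2, Cdkn1b, Cdkn2b and Cdkn2c fell. In this comparison 69.8% of all 14811 tested genes were called, 34.0% higher and 35.8% lower, so a count of 9 of 10 calls is read against that share. The groups did not overlap for the same 9 members, against 73.0% of tested genes. Changes of at least 2-fold were called for 3 members, Ccnd1, Cdk6 and Cdkn1a, against 13.8% of tested genes. The median log2 fold change of the members was 0.12, and that of all tested genes was -0.0065.

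**Figure D1:**
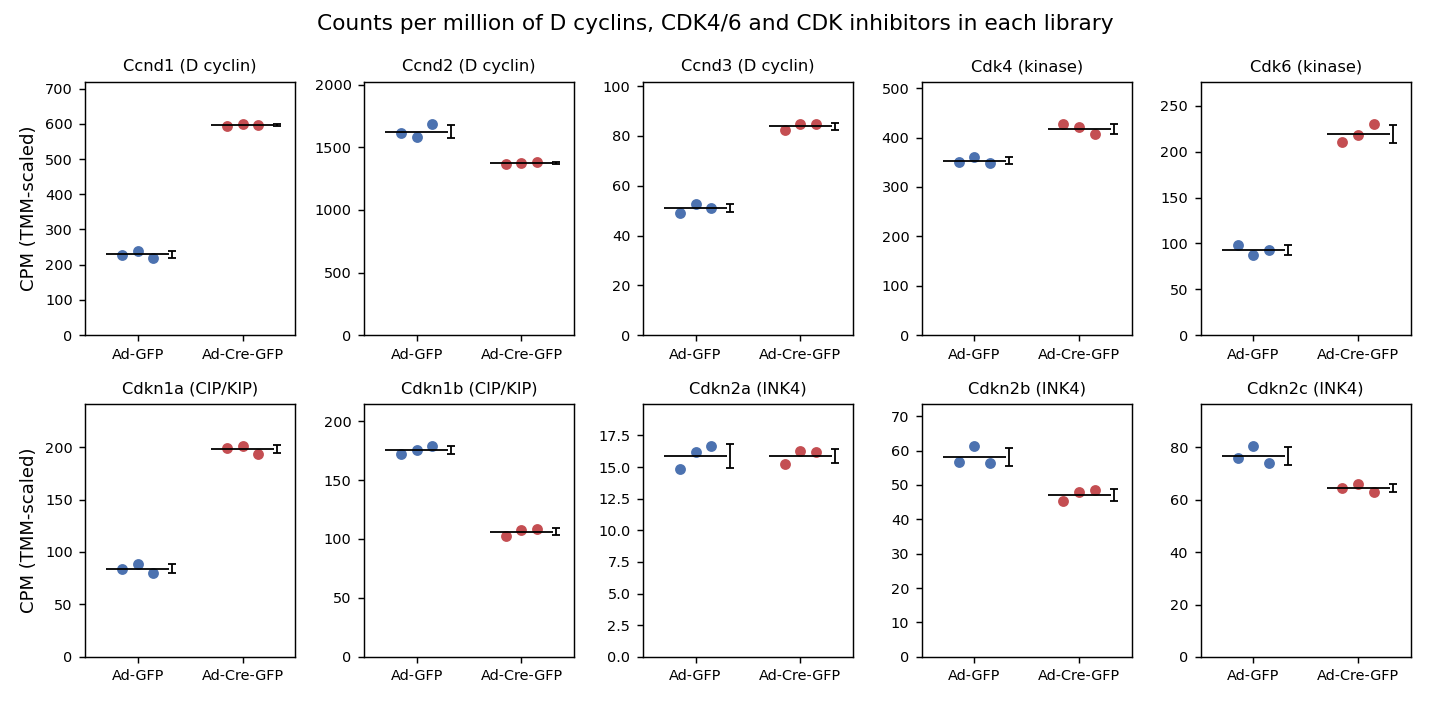
TMM-scaled CPM (vertical axis, from 0) of each gene in the 3 Ad-GFP (blue) and 3 Ad-Cre-GFP (red) libraries. Points are libraries, horizontal lines are means and bars are SD; the groups overlap only for Cdkn2a, and Ccnd1 moves from 219 to 240 CPM up to 593 to 598 CPM.

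Among the D cyclins, Ccnd1 rose most, Ccnd3 rose less from a lower level, and Ccnd2 fell slightly. Ccnd1 encodes cyclin D1, the D cyclin most often amplified in cancers (chromosome 7, 144929931 to 144939925, minus strand, GRCm38). It measured 229, 240 and 219 CPM in Ad-GFP replicates 1 to 3 and 593, 598 and 598 CPM in the Ad-Cre-GFP replicates. The Ad-Cre-GFP libraries lay within 6 CPM of each other and all far above the controls. The mean went from 229 ± 10.3 to 596 ± 2.78 CPM (SD, n = 3). The log2 fold change was 1.38 ± 0.03 (SE, adjusted p = 2.32e-19), larger in size than for 92.0% of tested genes. The exons of Ccnd1 overlap those of LTO1, on the opposite strand, over 23.4% of their length, and how strand was counted is not known. LTO1 itself measured 21.3 ± 0.456 CPM in the controls and 25.02 ± 2.08 CPM in the Ad-Cre-GFP libraries.

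Ccnd2 encodes cyclin D2, the D cyclin of granulosa cell proliferation in the ovary (chromosome 6, 127125162 to 127152193, minus strand). It measured 1615, 1579 and 1682 CPM in the controls and 1370, 1378 and 1383 CPM in the Ad-Cre-GFP libraries. Every Ad-Cre-GFP library was below every control, and the mean fell to 84.7% of control (-0.24 ± 0.03, adjusted p = 3.58e-07). This change was larger in size than for only 37.1% of tested genes.

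Ccnd3 encodes cyclin D3, which also partners CDK4 and CDK6 (chromosome 17, 47505051 to 47599691, plus strand). It measured 49.2, 52.6 and 51.0 CPM in the controls and 82.3, 84.6 and 84.6 CPM in the Ad-Cre-GFP libraries. The groups were well apart, and the rise was 1.65-fold (0.72 ± 0.04, adjusted p = 2.29e-13). An annotated copy, Ccnd3-ps, shares 754 aligned bases at 96.4% identity. It measured 1.92 ± 0.293 and 3.30 ± 0.4605 CPM in the 2 groups, and how reads matching both were counted is not known. Bysl, which overlaps 4.11% of the Ccnd3 exons on the opposite strand, also rose, from 34.5 ± 2.58 to 70.4 ± 0.754 CPM (1.02 ± 0.05, adjusted p = 1.59e-14). Its share in the Ccnd3 counts was not tested.

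Both kinases rose, Cdk6 far more than Cdk4. Cdk6 (chromosome 5, 3341485 to 3531008, plus strand) measured 98.5, 86.9 and 93.3 CPM in the controls and 211, 218 and 229.7 CPM in the Ad-Cre-GFP libraries. The lowest Ad-Cre-GFP library was above 2 times the highest control. The rise was 2.36-fold (1.24 ± 0.04, adjusted p = 2.15e-14). Cdk4 (chromosome 10, 127063534 to 127067920, plus strand) measured 350.5, 361 and 349 CPM in the controls and 427, 420.5 and 407 CPM in the Ad-Cre-GFP libraries. The groups did not overlap, but the rise was only 1.18-fold (0.24 ± 0.03, adjusted p = 2.85e-07), larger in size than for 37.3% of tested genes. The opposite-strand gene Tspan31 overlaps 19.7% of the Cdk4 exons, and it fell, from 89.1 ± 2.11 to 64.2 ± 4.30 CPM (-0.47 ± 0.04, adjusted p = 3.41e-09). Its share in the Cdk4 counts was not tested.

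The CIP/KIP inhibitors changed in opposite directions. Cdkn1a encodes p21, an inhibitor that p53 and many stress and growth signals induce (chromosome 17, 29090976 to 29100727, plus strand). It measured 84.0, 88.7 and 79.6 CPM in the controls and 199, 201 and 194 CPM in the Ad-Cre-GFP libraries. All Ad-Cre-GFP libraries were above 2 times the highest control, a 2.35-fold rise (1.23 ± 0.04, adjusted p = 1.00e-17). The count pools both starts shown above. Cdkn1b encodes p27, an inhibitor that is high in resting cells (chromosome 6, 134920401 to 134925513, plus strand). It measured 172, 175 and 179 CPM in the controls and 103, 107 and 108 CPM in the Ad-Cre-GFP libraries. The groups were well apart, with the mean at 60.5% of control (-0.72 ± 0.03, adjusted p = 1.21e-14).

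The INK4 genes changed little. Cdkn2c encodes p18INK4c (chromosome 4, 109660876 to 109667189, minus strand) and measured 75.9, 80.5 and 74.0 CPM in the controls against 64.4, 66.2 and 62.9 CPM in the Ad-Cre-GFP libraries. Cdkn2b encodes p15INK4b, an inhibitor that TGF-beta induces in epithelial cells (chromosome 4, 89306299 to 89311039, minus strand), and measured 56.7, 61.3 and 56.5 CPM against 45.2, 47.95 and 48.5 CPM. In both genes all Ad-Cre-GFP libraries were below all controls. The falls were to 84.0% of control for Cdkn2c (-0.25 ± 0.04, adjusted p = 5.75e-06) and to 81.2% for Cdkn2b (-0.30 ± 0.04, adjusted p = 2.54e-06). Cdkn2a (chromosome 4, 89274471 to 89294653, minus strand) was the lowest member in CPM, at 14.8, 16.2 and 16.6 in the controls and 15.3, 16.2 and 16.2 in the Ad-Cre-GFP libraries. The groups overlapped and the log2 fold change was 0.0020 ± 0.065 (adjusted p = 0.981). This gene has a p19ARF transcript of 895 bases and a p16INK4a transcript of 852 bases, so opposite changes of the 2 products were not measurable from its single count.

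Cdkn2a and Cdkn2b are neighbours on chromosome 4, and this interval is often deleted in cultured mouse cells and in tumours. All 6 libraries held reads of both genes, at least 314 of Cdkn2a and at least 1066 of Cdkn2b. The adjoining gene Mtap, an enzyme of methionine salvage, measured 295 ± 5.29 CPM in the controls and 285 ± 3.48 CPM in the Ad-Cre-GFP libraries (-0.053 ± 0.03, adjusted p = 0.109). Its call depended on 1 library, with an adjusted p of 0.0376 without Ad-GFP replicate 3. On the other side, Dmrta1 had 0 counts in the controls and 5 in all Ad-Cre-GFP libraries.

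**Figure D2:**
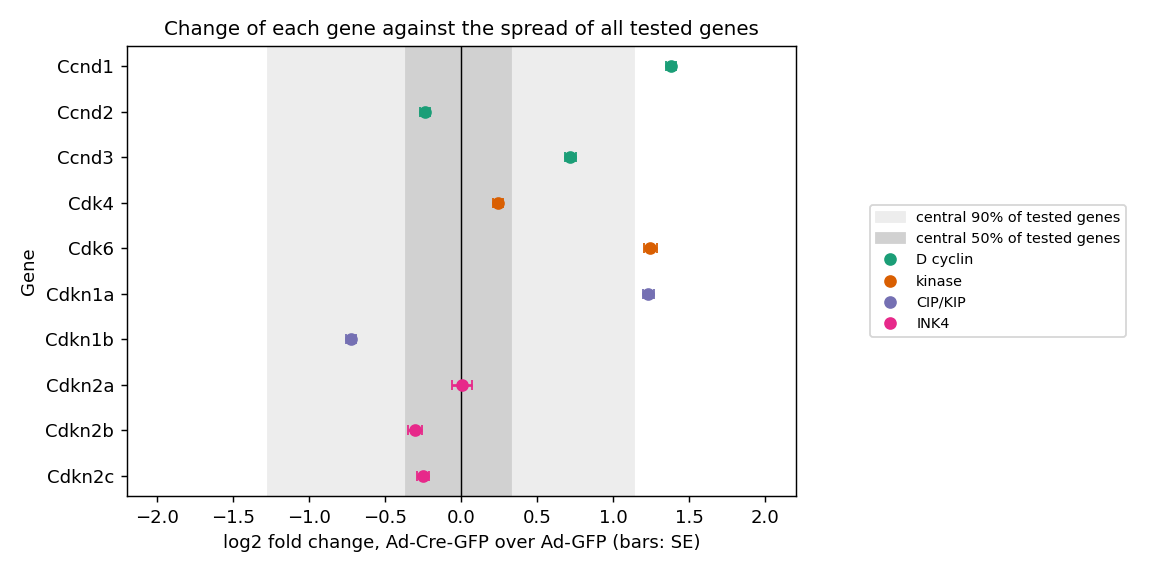
Log2 fold change of Ad-Cre-GFP over Ad-GFP (horizontal axis) for each gene (vertical axis), with SE bars and colours by role, over bands that hold the central 50% and 90% of all tested genes. Ccnd1 (1.38), Cdk6 (1.24) and Cdkn1a (1.23) lie beyond the upper edge of the wider band (1.13), and Ccnd2, Cdk4 and the INK4 genes lie within the narrower one (-0.36 to 0.33).

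Levels of different genes were compared per length, as CPM per kb of merged exons. In the controls the order was Ccnd2 (173 CPM per kb), Cdk4 (109), Ccnd1 (48.7), Cdkn2b (41.9), Cdkn1b (38.5), Cdkn2c (28.6), Cdkn1a (23.7), Cdkn2a (13.6), Cdk6 (6.64) and Ccnd3 (5.80), with no overlap between neighbours. In the Ad-Cre-GFP libraries it was Ccnd2 (146), Cdk4 (129), Ccnd1 (127), Cdkn1a (55.7), Cdkn2b (34.0), Cdkn2c (24.0), Cdkn1b (23.3), Cdk6 (15.7), Cdkn2a (13.6) and Ccnd3 (9.55). Here Cdk4 and Ccnd1 overlapped, as did Cdkn2c and Cdkn1b. Of the inhibitors, Cdkn1a was above only Cdkn2a in the controls and above all others in the Ad-Cre-GFP libraries. With the longest annotated transcript as the length, the controls of Cdkn2b, Cdkn1a and Cdkn1b overlapped in turn (41.9, 40.4 and 38.5 CPM per kb), and Ccnd3 stood above Cdk6 in both groups. In the Ad-Cre-GFP libraries Cdk4 (204) and Ccnd1 (159) then lay apart, as did Cdkn2c (26.1) and Cdkn1b (23.3), and Cdkn2a (17.8) was last. These parts of the order thus depend on the length used.

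The make-up of the D cyclin level shifted from Ccnd2 towards Ccnd1. Ccnd1 made up 21.5%, 22.7% and 20.1% of the per-length D cyclin level in the controls and 44.8%, 44.9% and 44.8% in the Ad-Cre-GFP libraries. The groups were far apart (21.4% ± 1.26 and 44.8% ± 0.0553, SD, n = 3; two-sided exact permutation p = 0.10, the smallest that 3 against 3 can give). Ccnd2 went from 76.0% ± 1.34 to 51.8% ± 0.0591 and remained the largest of the 3 by this measure, and Ccnd3 from 2.56% ± 0.0983 to 3.38% ± 0.0373. The summed D cyclin level was 1.24-fold higher, at 283 ± 1.41 against 227 ± 3.46 CPM per kb.

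Cdk6 made up 6.13%, 5.30% and 5.84% of the CDK4/6 level in the controls and 10.3%, 10.7% and 11.6% in the Ad-Cre-GFP libraries, without overlap (exact permutation p = 0.10, the smallest possible). Cdk4 thus still held 89.1% ± 0.659 of that level. The summed kinase level was 1.25-fold higher, at 144 ± 2.45 against 115 ± 1.60 CPM per kb. The ratio of D cyclin to CDK4/6 level was 1.97 ± 0.0544 in the controls and 1.96 ± 0.0417 in the Ad-Cre-GFP libraries, with overlapping groups (exact permutation p = 0.80).

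In the CIP/KIP pair, Cdkn1a went from 38.1% ± 1.55 to 70.5% ± 0.851 of the level, with no overlap (exact permutation p = 0.10, the smallest possible). The sum of the pair was 1.27-fold higher (62.2 ± 1.07 to 79.0 ± 0.989 CPM per kb), while the INK4 sum was lower, at 71.5 ± 1.81 against 84.0 ± 3.36 CPM per kb. With the longest transcript as the length, the mean Cdkn1a share was 51.2% in the controls and 80.3% in the Ad-Cre-GFP libraries. The control levels of the pair then overlapped, at 38.3 to 42.7 CPM per kb for Cdkn1a and 37.9 to 39.3 for Cdkn1b. By this length the sum of the pair was 79.0 ± 1.90 and 118 ± 1.67 CPM per kb, a larger difference. The sums, shares and ratios cover members only, so Cdkn1c and the INK4 gene Cdkn2d, described below, are left out. Over the 5 inhibitors among the members, the sum was 146 ± 4.43 CPM per kb in the controls. In the Ad-Cre-GFP libraries this sum was 150.5 ± 2.49, and the groups overlapped. With the longest transcript it was 170 ± 5.39 and 196 ± 2.94 CPM per kb, 1.16-fold higher with no overlap, so the overlap depended on gene length. The ratio of D cyclin to inhibitor level was 1.58, 1.48 and 1.60 in the controls and 1.90, 1.85 and 1.89 in the Ad-Cre-GFP libraries. This difference also depended on gene length. With the longest transcript the ratios were 1.98, 1.86 and 2.02 against 2.04, 2.00 and 2.05, and the groups overlapped (exact permutation p = 0.20).

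**Figure D3:**
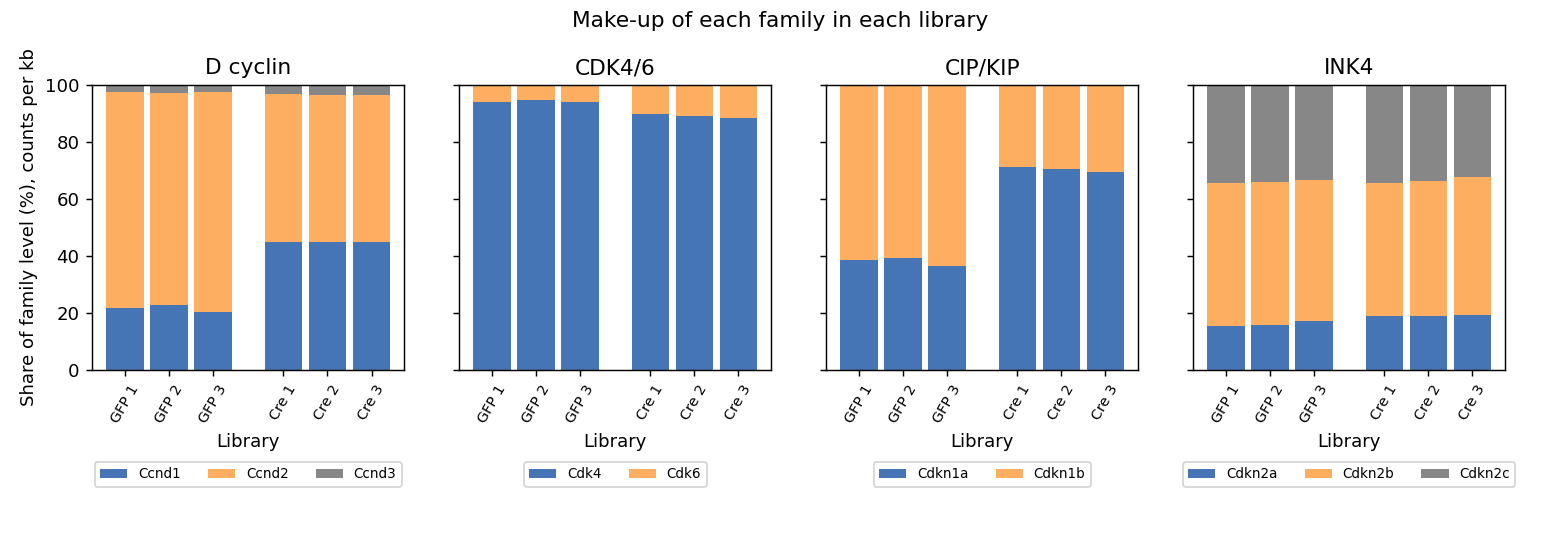
Share of each family's per-length level (vertical axis, percent of counts per kb of merged exons) held by each gene in each library (horizontal axis), one panel per family. Families hold the members only, so the INK4 panel leaves out Cdkn2d. The Ccnd1 share goes from 21.4% to 44.8%, the Cdk6 share from 5.76% to 10.9% and the Cdkn1a share from 38.1% to 70.5%, while the INK4 panel shifts by under 3 points.

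Genes that act beside the D cyclins were read from lists chosen with earlier results of these data known. Of 7 partners of the later G1 kinase step, 6 rose and 1 was not called (median log2 fold change 0.59, against -0.0065 for all tested genes), and 85.7% were called, against 69.8% of all tested genes. Ccne1 and Ccne2, the E cyclins that activate CDK2, rose from 8.16 ± 0.414 to 17.1 ± 0.992 CPM (1.07 ± 0.08, adjusted p = 3.88e-11) and from 23.2 ± 1.37 to 44.7 ± 1.63 CPM (0.94 ± 0.05, adjusted p = 5.64e-13). Cdk2 rose by 0.59 ± 0.04. The largest change was that of Cdc25a, the phosphatase that activates CDK2, from 41.6 ± 1.89 to 90.6 ± 0.928 CPM (1.12 ± 0.04, adjusted p = 1.97e-16). Of the CDK-activating kinase, Ccnh and Mnat1 rose and Cdk7 was not called (-0.07 ± 0.04, adjusted p = 0.142).

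The other CDK inhibitor genes were low or little changed. Cdkn1c, which encodes p57, had 22 counts in all controls and 30 in all Ad-Cre-GFP libraries, too few to be tested. Cdkn2d, which encodes p19INK4d, measured 49.0 ± 5.01 and 43.8 ± 0.275 CPM with overlapping groups (-0.17 ± 0.06, adjusted p = 0.0138), and its call was lost without either of 2 libraries. Without Ad-GFP replicate 2 the log2 fold change was -0.088 (adjusted p = 0.132). It was still -0.15 when Ad-Cre-GFP replicate 1 was left out (adjusted p = 0.0560).

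Downstream of the kinases, 9 of 13 pocket protein and E2F genes rose, 2 fell and 2 were not called (median 0.35), against 34.0% higher and 35.8% lower among all tested genes. Rb1, the retinoblastoma gene, rose from 33.6 ± 1.83 to 54.3 ± 2.56 CPM (0.70 ± 0.05, adjusted p = 3.19e-11) and Rbl1 (p107) by 0.35 ± 0.05, while Rbl2 (p130), the pocket protein of resting cells, fell from 41.7 ± 2.27 to 26.8 ± 0.675 CPM (-0.63 ± 0.05, adjusted p = 2.71e-10). The activator E2f1 rose by 0.90 ± 0.05. The largest change of the list was that of E2f7, a repressor that E2F factors induce, from 19.3 ± 0.991 to 72.6 ± 2.18 CPM (1.91 ± 0.05, adjusted p = 6.77e-19), and its relative E2f8 rose by 0.70 ± 0.06. E2f2 fell (-0.60 ± 0.06).

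Of 14 tested genes that act in the turnover of D cyclins, p21 and p27, 6 rose, 4 fell and 4 were not called (median -0.0089). The 71.4% called was near the 69.8% of all tested genes. Skp2 and Cks1b, which together mark p27 for degradation, rose from 17.2 ± 1.95 to 37.0 ± 0.198 CPM (1.09 ± 0.06, adjusted p = 8.16e-13) and from 65.2 ± 1.59 to 85.6 ± 0.381 CPM (0.39 ± 0.04, adjusted p = 1.73e-09). Dtl, the adaptor that marks p21 and CDT1, changed most, from 23.0 ± 1.35 to 58.1 ± 0.377 CPM (1.33 ± 0.05, adjusted p = 2.80e-16), and the scaffold Cul4b rose by 1.04 ± 0.03. Ambra1, an adaptor in the degradation of D cyclins, fell from 47.5 ± 2.47 to 37.1 ± 0.933 CPM (-0.35 ± 0.05, adjusted p = 6.69e-07). Fbxo31 and Gsk3b, also tied to cyclin D1 turnover, fell by 0.42 and 0.24 on the log2 scale. Protein levels were not measured.

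Of 15 tested chromatin and transcription factors of the INK4 locus, 6 rose, 4 fell and 5 were not called (median 0.02). The 66.7% called was likewise near the share of all tested genes. Ezh2, the Polycomb methyltransferase that silences the locus, rose from 87.3 ± 2.59 to 132 ± 0.216 CPM (0.60 ± 0.03, adjusted p = 4.04e-13), and its partners Eed and Suz12 rose by 0.48 ± 0.04 and 0.37 ± 0.03. The Polycomb genes Bmi1 (-0.06 ± 0.03, adjusted p = 0.113) and Cbx7 (0.02 ± 0.06, adjusted p = 0.812) were not called. Kdm6b, a demethylase that removes the Polycomb mark, fell by 0.76 on the log2 scale. Ets1, an activator of p16INK4a transcription, changed most (1.15 ± 0.03, adjusted p = 7.91e-18).

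Of 13 transcription factors and regulators that act on D cyclin and CIP/KIP genes, 4 rose, 8 fell and 1 was not called (median -0.28). Of all tested genes 34.0% rose and 35.8% fell. Myc, which represses Cdkn1a and Cdkn1b and induces D cyclins in many cells, rose from 81.1 ± 0.489 to 141 ± 3.16 CPM (0.80 ± 0.03, adjusted p = 2.20e-15), and Foxm1 rose by 1.02 ± 0.06. The FOXO genes, which encode activators of Cdkn1b, fell, with Foxo1 from 14.7 ± 1.01 to 10.01 ± 0.288 CPM (-0.55 ± 0.07, adjusted p = 1.09e-06), Foxo3 from 93.9 ± 3.20 to 65.9 ± 2.68 CPM (-0.51 ± 0.04, adjusted p = 1.05e-10) and Foxo4 by 0.76 on the log2 scale. Trp53 rose from 93.4 ± 2.82 to 133 ± 5.25 CPM (0.51 ± 0.04, adjusted p = 3.05e-11), and Mdm2, its target and inhibitor, by 0.93 ± 0.03. Fos, of the AP-1 family, changed most (-1.50 ± 0.12, adjusted p = 2.34e-09).

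**Figure D4:**
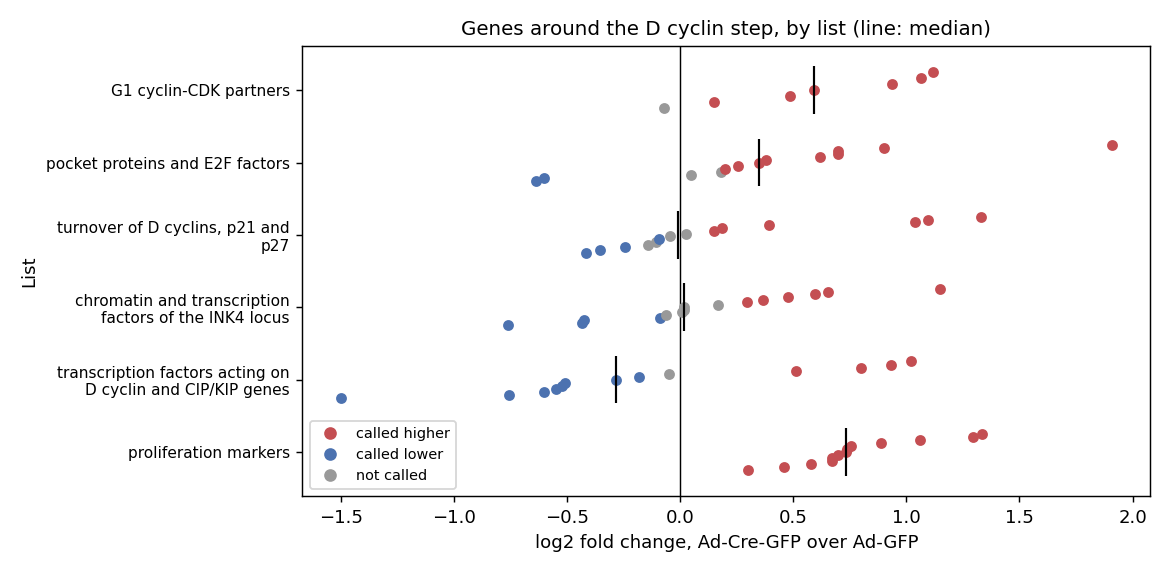
Log2 fold change of Ad-Cre-GFP over Ad-GFP (horizontal axis) of each tested gene in 6 lists (vertical axis), coloured by call (red higher, blue lower, grey not called), with a line at each list's median. Medians run from -0.28 for transcription factors of D cyclin and CIP/KIP genes to 0.73 for proliferation markers.

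Markers of cycling cells were higher in the Ad-Cre-GFP libraries. All 13 proliferation markers rose (median 0.73), against 34.0% of all tested genes, with Mki67 from 385 ± 28.7 to 475.5 ± 22.1 CPM (0.30 ± 0.05, adjusted p = 0.000363) and the replication gene Mcm2, the largest change, by 1.34 ± 0.08. Their sum was 1643 to 1898 CPM in the controls and 2920 to 3022 CPM in the Ad-Cre-GFP libraries. All 13 were lower in Ad-GFP replicate 3 than in the other controls, as were 35.3% of tested genes, and without it all 13 still rose (median 0.66). It was the lowest control for 5 of the 10 members (Ccnd1, Cdk4, Cdkn1a, Cdkn2b and Cdkn2c), and without it 5 members still rose and 4 fell. The part of a different share of cycling cells in the changes of the D cyclins, kinases and inhibitors was not tested.

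The genes closest to a member in profile were sought by the root mean square difference of log2 CPM, centred on the control mean, over the 6 libraries, among 10778 other genes with a mean of at least 5 CPM. For Ccnd1 these were Rnd1 (difference 0.016), the myosin gene Myo1c (0.019) and Tmem144 (0.020). For Cdkn1a they were Rrp9 (0.013), the alcohol dehydrogenase gene Adh7 (0.018) and the ribonucleotide reductase gene Rrm1 (0.028). For Cdkn2c, the INK4 gene with most counts, they were Spats2 (0.013), Rilpl2 (0.016) and Ap1m1 (0.018). With 2 groups of tight replicates, this measure mostly ranks genes by an equal fold change.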

How the data were processed

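Poly(A)-selected RNA of 3 Ad-GFP and 3 Ad-Cre-GFP libraries was measured, per the labels' protocols. The authors deposited unnormalized read counts, 1 column a library, which come from BAM files according to the column names. Tools named in the submitters' processing notes are kallisto 0.46.2 and sleuth 0.30.1, with GRCm38 as the build. The aligner, counter and strand setting are not given in these sources. Names, coordinates and lengths came from GENCODE M21 (GRCm38), which matched 48058 of 48440 IDs; 382 unmatched IDs held 0.0381% of counts. Promoters came from RefSeq (GRCm38.p6).

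Genes were filtered with filterByExpr, TMM-scaled and tested with edgeR 4.0.16 (quasi-likelihood, robust dispersion, no replicate block, R 4.3.3), leaving 14811 genes, and p-values were Benjamini-Hochberg adjusted over all of them. SE is the log2 fold change over the square root of F. No replicate pair agreed within sampling noise (chi-square per gene 2.04 to 4.27). Shares used exact permutation tests. Exon overlaps with other genes came from GENCODE M21 coordinates. Near-identical copies were sought with minimap2 at 200 bases and 90% identity. On simulated data with 200 of 14811 genes changed, 92.0% of log2 changes of 1 and 70.0% of 0.5 were recovered, with 2.99% false calls. In the measured data 69.8% of genes were called, so these rates may not hold for them.

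The members and lists were chosen with earlier results of these data known. Named genes are the members, a fixed set from the lists, the largest called change of each list and the 3 closest profiles of Ccnd1, Cdkn1a and the INK4 gene with most counts. Other list genes named were picked as examples with their values in view. Alternatives were RLE and upper-quartile scaling, other filters, DESeq2 1.42.0, limma-voom (limma 3.58.1), no robust dispersion, a replicate block, thinning, another gene length and leaving out each library.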

Additional observations from a re-analysis of the deposited data

How the results depend on the processing

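The 5 rises and 4 falls among the members were kept, gene by gene, under all 15 alternatives of the test, and Cdkn2a was never called (adjusted p 0.587 to 0.981). Ccnd1 ranged from 1.35 to 1.41, Cdk6 from 1.19 to 1.29 and Cdkn1b from -0.74 to -0.69 in log2 fold change, and Ccnd2 from -0.26 to -0.21. The number of genes called over the whole table ran from 9351 with DESeq2 to 10854 without a filter on low counts. Whether replicate numbers pair the libraries is not known. Same-numbered libraries deviated together with correlations of 0.0050 to 0.051, against -0.0704 to 0.0227 for differently numbered ones. Such weak correlations, with 3 libraries a group, cannot settle it. With a replicate block 9 members and 10478 genes were called. Leaving out a library gave 9932 to 10124 called genes and 60 to 64 called list genes, against 10344 and 63 with all libraries. With the longest transcript as gene length, the difference between the groups was 21.5 points in place of 23.4 for the Ccnd1 share and 4.09 in place of 5.12 for the Cdk6 share. Counting depth did not limit the members, which had at least 314 counts a library; it left Cdkn1c untested.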
